A study of Rattus norvegicus with 21 samples.

Results

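The genes around Cyp4a1 on rat chromosome 5 were examined in renal cortex. The neighbourhood was defined by position as genes whose start lay within 300 kb of that of Cyp4a1 (ENSRNOG00000009597) on either strand of the rn5 genome and whose mean reached 0.5 CPM (the counts of a gene per 1000000 counts of its library) in at least 1 group. Of 26404 genes in the files, 1572 lay on chromosome 5 and 16 lay within this window, of which 9 met the CPM minimum. The other 7 genes did not exceed a group mean of 0.210 CPM, and 3 of them had no count in any of 19 rats. The files list Ensembl identifiers without gene symbols, and 0 of the identifiers matched the gene table used here, so that Cyp4a1 is the only gene of the neighbourhood named by symbol.

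Renal cortical RNA-seq covered 21 male rats aged 37 weeks. Sprague Dawley (SD) rats were healthy controls (n=6). Zucker Diabetic Sprague Dawley (ZDSD) rats, a polygenic rat model of obesity and diabetes, underwent a sham laparotomy and served as disease controls (SHAM, n=9) or underwent the same operation and received dietary restriction plus medical therapy (DMT, n=6), which the labels call Medical bypass. Medical therapy combined fenofibrate, metformin, ramipril, rosuvastatin and liraglutide, so that the response to a single drug cannot be told apart from that to the others or to dietary restriction. Both ZDSD groups had received insulin degludec before surgery, and all 3 groups were given the same chow, in restricted rations in DMT. SHAM and SD rats thus differ in strain, diabetes, operation and insulin, whose effects cannot be told apart. Total counts were 14502127 to 27597901 in 19 rats, in which 3 counts correspond to 0.109 to 0.207 CPM. SHAM rats 343 and 348 had 121511 and 101534 counts and were left out of the groups, which leaves 7 SHAM rats. According to the labels, SD and SHAM libraries are re-analyses of earlier samples, whereas those of DMT-treated rats are not, and any effect of this cannot be told apart from that of DMT. As markers could not be named, the tissue label was not checked against cell types, and in bulk tissue fewer cells of a type and less RNA per cell cannot be told apart.

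Cyp4a genes encode microsomal cytochrome P450 enzymes that hydroxylate fatty acids at the terminal (omega) carbon, a route that leads to dicarboxylic acids and peroxisomal β-oxidation. In the kidney, enzymes of this family also hydroxylate arachidonic acid, and the product acts on vascular tone and tubular salt transport. Transcription of Cyp4a genes is a classical target of PPARα, the nuclear receptor activated by fenofibrate and other fibrates.

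In the RefSeq annotation of the rat (GRCr8), Cyp4a1 lies between Cyp4a3 and Cyp4b1, and the order on the far side of Cyp4a3 is Cyp4a2l1, Cyp4a2, Cyp4a8 and Cyp4x1. On the side of Cyp4b1 the order is Efcab14, Tex38, Atpaf1, Mob3c, Mknk1 and Kncn. These symbols were not assigned to the Ensembl genes counted here. The 250 bases before the RefSeq start of 3 Cyp4a genes are shown, 2 that hold the motif described here (Cyp4a2 and Cyp4a3) and 1 that does not (Cyp4a8), so that Cyp4a genes of this neighbourhood can be compared. The window of Cyp4a2l1, which lies between Cyp4a3 and Cyp4a2 and also holds 1 half-site, and that of Cyp4a1 are not shown. They are written 5′ to 3′ on the minus strand, which carries these genes, from chr5:134170909-134171158 for Cyp4a2, chr5:134352237-134352486 for Cyp4a3 and chr5:133970227-133970476 for Cyp4a8 (RefSeq, GRCr8). Capitals mark the motif AGGTCA, the half-site recognised by PPARα and other nuclear receptors, searched on both strands.
Cyp4a2: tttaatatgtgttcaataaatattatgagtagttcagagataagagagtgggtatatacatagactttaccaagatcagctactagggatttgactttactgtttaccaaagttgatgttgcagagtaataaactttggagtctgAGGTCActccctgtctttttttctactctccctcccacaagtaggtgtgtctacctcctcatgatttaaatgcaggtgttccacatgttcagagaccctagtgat
Cyp4a3: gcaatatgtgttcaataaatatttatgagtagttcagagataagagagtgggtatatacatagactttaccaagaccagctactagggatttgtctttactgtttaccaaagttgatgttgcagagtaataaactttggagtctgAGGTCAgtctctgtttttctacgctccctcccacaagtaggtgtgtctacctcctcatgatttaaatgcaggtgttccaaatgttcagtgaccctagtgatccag
Cyp4a8: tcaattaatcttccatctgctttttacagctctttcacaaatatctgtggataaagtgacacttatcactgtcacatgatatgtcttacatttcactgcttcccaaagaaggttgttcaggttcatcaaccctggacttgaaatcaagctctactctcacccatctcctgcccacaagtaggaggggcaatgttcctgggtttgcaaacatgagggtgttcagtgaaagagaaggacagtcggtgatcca
The windows of Cyp4a2 and Cyp4a3 were 92.5% identical over 255 aligned positions, and each held 1 half-site, 105 to 100 bases before the start. Cyp4a8 was 56.5% identical to Cyp4a2 and held none. The half-site occurred in 14.1% of 33469 rat promoter windows of the same length, and the direct repeat AGGTCANAGGTCA in 0.0508%, none of them in the 6 Cyp4 windows of the table. The windows of all 4 Cyp4a genes in the table (Cyp4a2l1 included) shared the 12 bases cccacaagtagg, which were held by 4 windows in all on either strand. These matches describe letters only, and their relation to the counts was not tested.

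The genes of the neighbourhood did not respond alike to DMT. Relative to SHAM rats, 4 of the 9 genes were higher in DMT-treated rats and none was lower. These were ENSRNOG00000030154, ENSRNOG00000009741, Cyp4a1 and ENSRNOG00000037618, with log2 fold-changes of 1.54, 1.84, 3.22 and 0.60. The other 5 genes had log2 fold-changes of -0.67 to -0.02 and were not called. A gene was called when its level differed by at least 1.3-fold with an adjusted p-value under 0.05 in edgeR's quasi-likelihood test with Benjamini-Hochberg adjustment over the 14664 genes tested. By these thresholds 11.5% of all genes were called, 4.12% as higher and 7.36% as lower in DMT-treated rats. None was called as lower by DESeq2 either, while 1 of the 9 genes was lower at an unadjusted p-value under 0.05 in edgeR. The median log2 fold-change was -0.02 over the 9 genes and 0.00 over all genes.

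**Figure D1:**
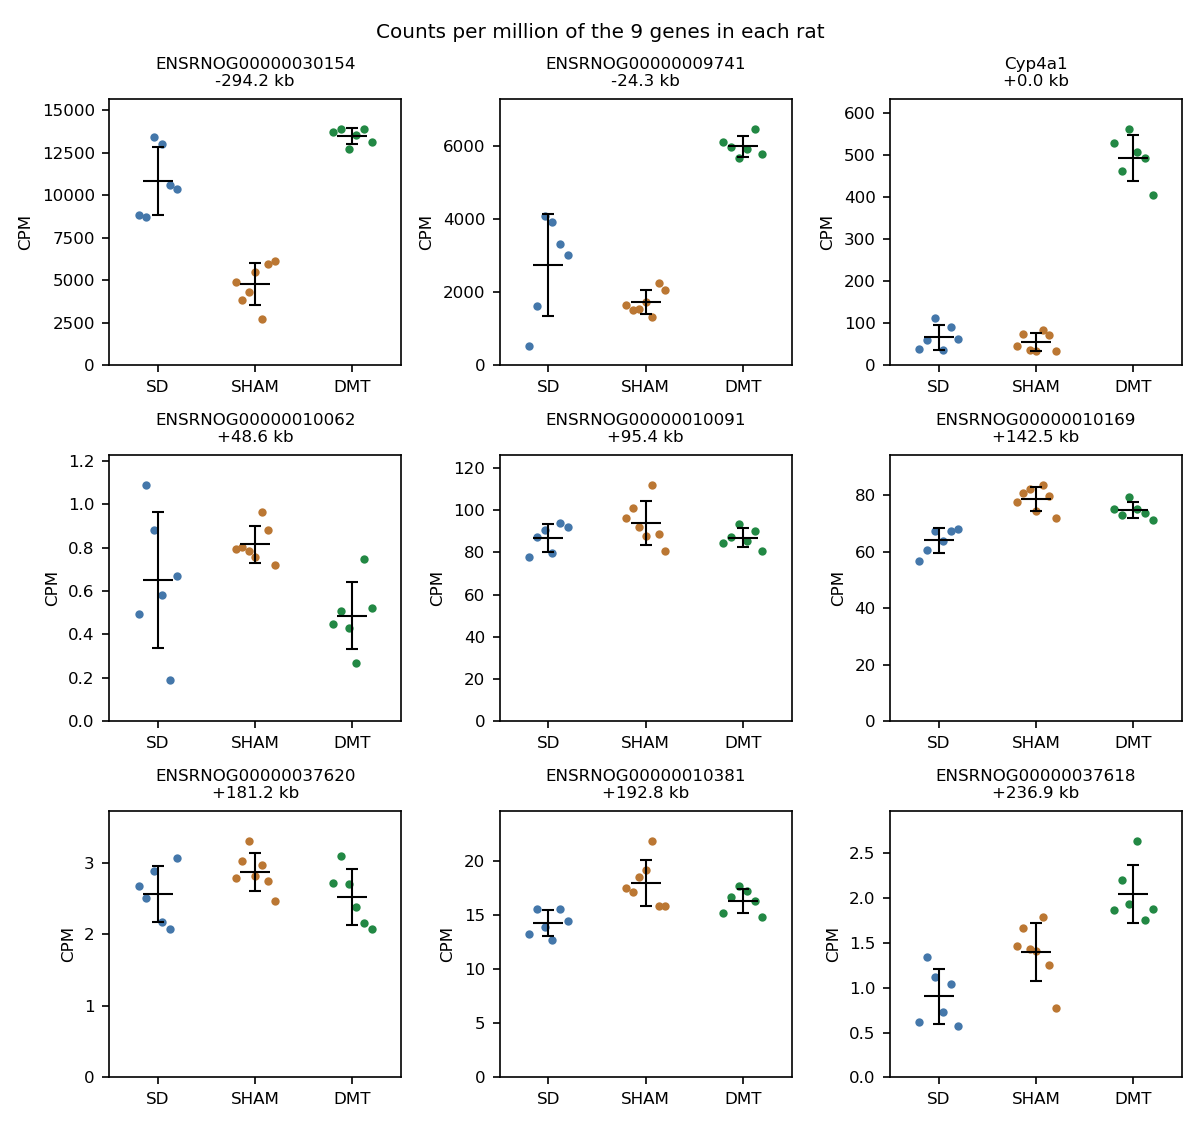
CPM (y axis, linear from 0) of the 9 genes in each rat, ordered by distance of the gene start from that of Cyp4a1. Points are rats and bars are mean ± SD; in the top row, all DMT-treated rats lie above all SHAM rats.

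Cyp4a1 (chr5:138283579-138297977, plus strand, 15 exons) showed the greatest fold-change of the 9 genes in DMT vs SHAM. Its level was 37.0 to 113 CPM in SD rats (median 61.4). SHAM rats had 34.0 to 85.0 CPM (median 45.0), and DMT-treated rats had 405 to 563 CPM (median 499.6). SD and SHAM rats overlapped over most of their range, while every DMT-treated rat was above every other rat. Mean levels were 67.2 ± 30.0 CPM in SD, 55.0 ± 21.9 CPM in SHAM and 493 ± 54.6 CPM in DMT-treated rats (SD of 6, 7 and 6 rats). In DMT vs SHAM, Cyp4a1 was 9.34-fold higher (log2 fold-change 3.22 ± 0.27 SE, adjusted p=5.56e-08), the 16th largest log2 fold-change among the 14664 genes. In DMT vs SD it was 6.95-fold higher (log2 fold-change 2.80 ± 0.28 SE, adjusted p=4.89e-07). The difference in SHAM vs SD did not pass the test (log2 fold-change -0.43 ± 0.25 SE, adjusted p=0.198). Cyp4a1 thus passed from place 4266 of all genes by mean CPM in SHAM rats to place 254 in DMT-treated rats. In mean CPM, ENSRNOG00000030154 (4765 in SHAM, 13487 in DMT) and ENSRNOG00000009741 (1724 in SHAM, 5992 in DMT) rose by more than Cyp4a1.

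The ENSRNOG00000030154 gene (chr5:137989329-138000280, minus strand, 13 exons, 2017 bp of exon) was the most abundant of the 9 genes. It starts 294.2 kb before Cyp4a1, close to the edge of the window. Its level was 8712 to 13418 CPM in SD rats (median 10502). SHAM rats had 2703 to 6123 CPM (median 4912), and DMT-treated rats had 12695 to 13928 CPM (median 13650.4). SHAM rats did not overlap with either of the other groups, whereas SD and DMT-treated rats did. By mean CPM this gene took place 1 of all genes in SD and in DMT-treated rats and place 5 in SHAM rats; the 37 mitochondrial genes are listed at 0 and take no part in this order. It was lower in SHAM rats than in SD rats (log2 fold-change -1.31 ± 0.18 SE, adjusted p=2.76e-05), with SHAM rats at 0.403 of the SD level. It was 2.91-fold higher in DMT vs SHAM (log2 fold-change 1.54 ± 0.18 SE, adjusted p=3.99e-06). In DMT vs SD the log2 fold-change was 0.23 ± 0.18 SE and not called (adjusted p=0.345). The coefficient of variation between rats was 18.5% in SD, 25.9% in SHAM and 3.58% in DMT-treated rats.

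The ENSRNOG00000009741 gene (chr5:138259232-138316870, minus strand) spans Cyp4a1 on the opposite strand. Of its 25 exons, 13 lie before Cyp4a1 and 12 after it, with 24763 bp between them and 0 bp of exon shared with Cyp4a1. In RefSeq the neighbours of Cyp4a1 on both sides, Cyp4a3 and Cyp4b1, lie on the minus strand; whether the rn5 model joins 2 genes was not tested, as the counts are given per gene and not per exon. SD rats had 519 to 4078 CPM (median 3175), a wide range in which rat 352 was below all SHAM rats and rat 353 within their range. SHAM rats had 1325 to 2248 CPM (median 1651), and DMT-treated rats had 5668 to 6484 CPM (median 5960.3), above all rats of the other groups. In DMT vs SHAM the gene was 3.59-fold higher (log2 fold-change 1.84 ± 0.31 SE, adjusted p=0.000338). In DMT vs SD it was 2.04-fold higher (log2 fold-change 1.03 ± 0.32 SE, adjusted p=0.0195), and the call was lost when a fold-change of 1.3 was tested within the model (adjusted p=0.119). In SHAM vs SD it was lower (log2 fold-change -0.81 ± 0.31 SE, adjusted p=0.0455). This last call was close to the threshold and was lost in 18 of 28 alternatives, with adjusted p-values between 0.000734 (without SD rat 352) and 0.294 (fold-change tested within the model).

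The ENSRNOG00000037618 gene (chr5:138520504-138523457, plus strand, 236.9 kb beyond Cyp4a1) was near the lower limit of detection, with only 402 bp of exon and 12 to 59 counts in a rat. SD rats had 0.574 to 1.34 CPM (median 0.883), SHAM rats 0.779 to 1.79 CPM (median 1.43) and DMT-treated rats 1.75 to 2.64 CPM (median 1.9). DMT-treated rats were above all SD rats and overlapped with SHAM rats. The gene was 1.52-fold higher in DMT vs SHAM (log2 fold-change 0.60 ± 0.19 SE, adjusted p=0.0284) and 2.14-fold higher in DMT vs SD (log2 fold-change 1.10 ± 0.20 SE, adjusted p=0.000347). In SHAM vs SD the log2 fold-change was 0.50 ± 0.20 SE and not called (adjusted p=0.0598). The call in DMT vs SHAM was lost without DMT rat 325 (adjusted p=0.0562), without DMT rat 329 (adjusted p=0.0727) and when the fold-change was tested within the model (adjusted p=0.488). In SHAM vs SD, leaving out SD rat 353, SD rat 354 or SHAM rat 340 led to a call (adjusted p=0.0228, 0.0482 and 0.0188).

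The 5 genes without a call in DMT vs SHAM lay beyond Cyp4a1, at 48.6 to 192.8 kb from its start, between Cyp4a1 and ENSRNOG00000037618. ENSRNOG00000010091 (chr5:138378955-138416616, plus strand) had 86.8 ± 6.67 CPM in SD, 93.9 ± 10.2 CPM in SHAM and 86.9 ± 4.40 CPM in DMT-treated rats. Its log2 fold-change in DMT vs SHAM was -0.06 ± 0.06 SE (adjusted p=0.523). On the CPM scale the 3 groups overlapped. ENSRNOG00000010169 (chr5:138426066-138451527, plus strand) had 64.0 ± 4.48, 78.5 ± 4.25 and 74.5 ± 2.80 CPM in the same order. In DMT vs SHAM its log2 fold-change was -0.02 ± 0.05 SE (adjusted p=0.798). All SHAM and all DMT-treated rats were above all SD rats in CPM. This CPM is taken from library totals without the normalization used in the test, and the separation after normalization was not examined. The fold-changes relative to SD rats, 1.12 for SHAM (adjusted p=0.0200) and 1.10 for DMT (adjusted p=0.0508), did not reach 1.3. ENSRNOG00000010381 (chr5:138476361-138513933, plus strand) had 14.3 ± 1.21, 18.0 ± 2.13 and 16.3 ± 1.13 CPM. This gene differed by 1.15-fold in SHAM vs SD (adjusted p=0.0160), also under the fold-change threshold, and had a log2 fold-change of -0.08 ± 0.06 SE in DMT vs SHAM (adjusted p=0.365).

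The remaining genes of the neighbourhood had few counts. ENSRNOG00000037620 (chr5:138464738-138471205, plus strand) had 2.56 ± 0.386, 2.87 ± 0.266 and 2.52 ± 0.387 CPM in SD, SHAM and DMT-treated rats, with a log2 fold-change of -0.14 ± 0.12 SE in DMT vs SHAM (adjusted p=0.461). ENSRNOG00000010062 (chr5:138332170-138333222, minus strand) is the nearest gene beyond Cyp4a1 and had 0.650 ± 0.311, 0.814 ± 0.0831 and 0.487 ± 0.156 CPM, from 4 to 26 counts in a rat. Its log2 fold-change in DMT vs SHAM was -0.67 ± 0.27 SE (adjusted p=0.0882). It was called as lower in DMT vs SHAM when only these groups were fitted (adjusted p=0.0269) or without SD rat 356 (adjusted p=0.0335), and as lower in DMT vs SD without the same SD rat (adjusted p=0.0325). The highest group mean among the 7 genes below the minimum was 0.210 CPM, against 0.814 CPM for ENSRNOG00000010062, the lowest of the 9 genes.

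Calls among the 9 genes were also counted in the other comparisons, in which more of all genes were called than in DMT vs SHAM (11.5%). The counts of the comparisons were not tested against each other, and nothing is read from their order. In SHAM vs SD, 2 genes (ENSRNOG00000030154 and ENSRNOG00000009741) were lower and none was higher. The call of ENSRNOG00000009741 was lost in 18 of 28 alternatives. Of all genes, 18.3% were called in SHAM vs SD, 10.3% as higher and 7.95% as lower. In DMT vs SD, 3 genes (ENSRNOG00000009741, Cyp4a1 and ENSRNOG00000037618) were higher and none was lower, against 18.2% of all genes called, 8.01% as higher and 10.2% as lower. In the directions without a call, edgeR gave 3 genes (higher in SHAM vs SD) and 0 genes (lower in DMT vs SD) at an unadjusted p-value under 0.05, and DESeq2 called none. The groups are shared between these comparisons, so that the calls are not independent of each other. By these calls, ENSRNOG00000030154 was lower in SHAM vs SD and higher in DMT vs SHAM. Cyp4a1 was higher in both comparisons with DMT and had no call in SHAM vs SD, where its log2 fold-change was also negative (-0.43 ± 0.25 SE). A difference between the 2 genes was tested in DMT vs SHAM only.

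**Figure D2:**
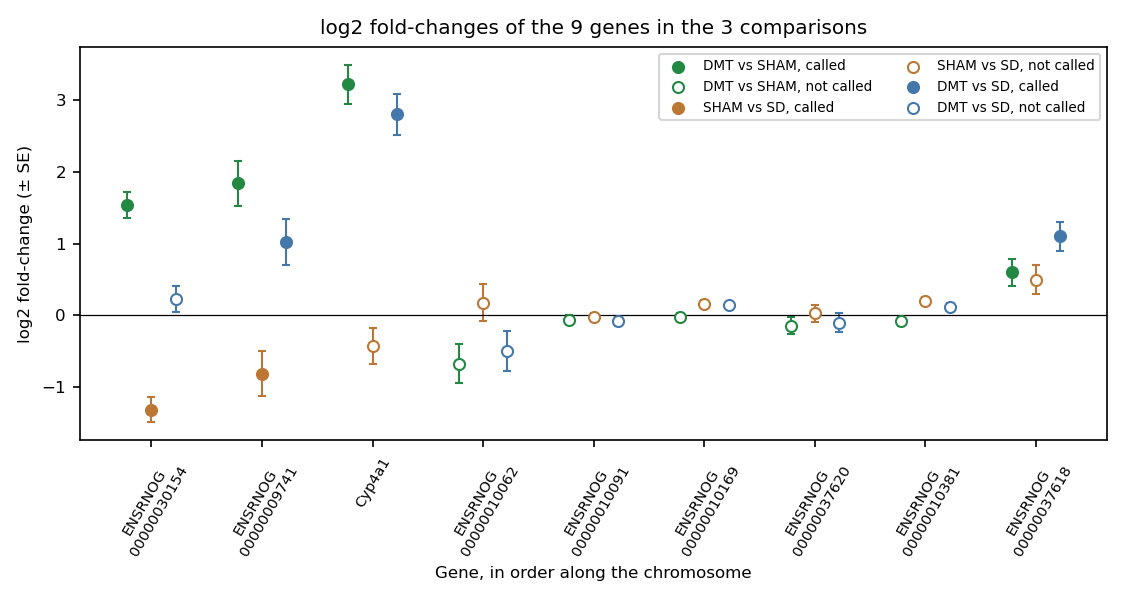
log2 fold-changes ± SE (y axis) of the 9 genes in order along the chromosome (x axis) in each of the 3 comparisons. Filled points passed the thresholds. Cyp4a1 reached 3.22 in DMT vs SHAM, and ENSRNOG00000030154 had -1.31 in SHAM vs SD.

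Levels were compared between genes per kb of exon. ENSRNOG00000030154 had 5372 ± 992 CPM per kb in SD, 2362 ± 612 in SHAM and 6687 ± 239 in DMT-treated rats. ENSRNOG00000009741 had 796 ± 405, 499 ± 94.9 and 1734 ± 82.7 CPM per kb over all 3456 bp of its exons on both sides of Cyp4a1. Whether both sides contribute alike to its counts was not tested. Cyp4a1 had 32.0 ± 14.3, 26.2 ± 10.4 and 235 ± 26.1 CPM per kb, so that it stayed the least abundant of these 3 genes in each group. In SD and SHAM rats its level was close to that of ENSRNOG00000010091 (25.4 ± 1.95 and 27.5 ± 3.00 CPM per kb), from which it stood apart in DMT-treated rats (25.5 ± 1.29 for ENSRNOG00000010091). ENSRNOG00000010169 had 20.9 to 25.6, ENSRNOG00000010381 7.48 to 9.43, ENSRNOG00000037618 2.25 to 5.09, ENSRNOG00000037620 2.68 to 3.05 and ENSRNOG00000010062 0.471 to 0.789 CPM per kb as group means.

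Whether the genes differed in response from Cyp4a1 was tested within rats. The log2 ratio of each gene's counts to those of Cyp4a1 was compared between 6 DMT-treated and 7 SHAM rats by a two-sided exact permutation test over 1716 splits, adjusted over 8 genes. The ratio was lower in DMT-treated rats for all 8 genes (largest adjusted p=0.00291, exact permutation test). All 8 ratios share the counts of Cyp4a1, so that these tests are not independent of each other. A gene that did not change gives a lower ratio through the rise of Cyp4a1 alone, and the share among all genes was not computed. For ENSRNOG00000030154 the ratio was 6.49 ± 0.89 in SHAM and 4.78 ± 0.18 in DMT-treated rats, a difference of -1.70 ± 0.34 SE. Thus Cyp4a1 rose 3.26-fold more than this gene (exact permutation p=0.00291), although the ratios of the 2 groups overlapped. Relative to ENSRNOG00000009741, Cyp4a1 rose 2.70-fold more (difference -1.44 ± 0.27 SE, exact permutation p=0.00175), with no overlap. Relative to ENSRNOG00000037618 the difference was -2.69 ± 0.21 SE, and relative to the 5 genes without a call it was -4.03 to -3.33. For these 6 genes the ratios of the groups did not overlap and p was 0.000583, the lowest value that 6 and 7 rats can give in this exact permutation test. In their own CPM, DMT-treated and SHAM rats overlapped for each of these 6 genes, so that the separation is that of Cyp4a1. The responding genes therefore differed from Cyp4a1 in their fold-change as well.

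**Figure D3:**
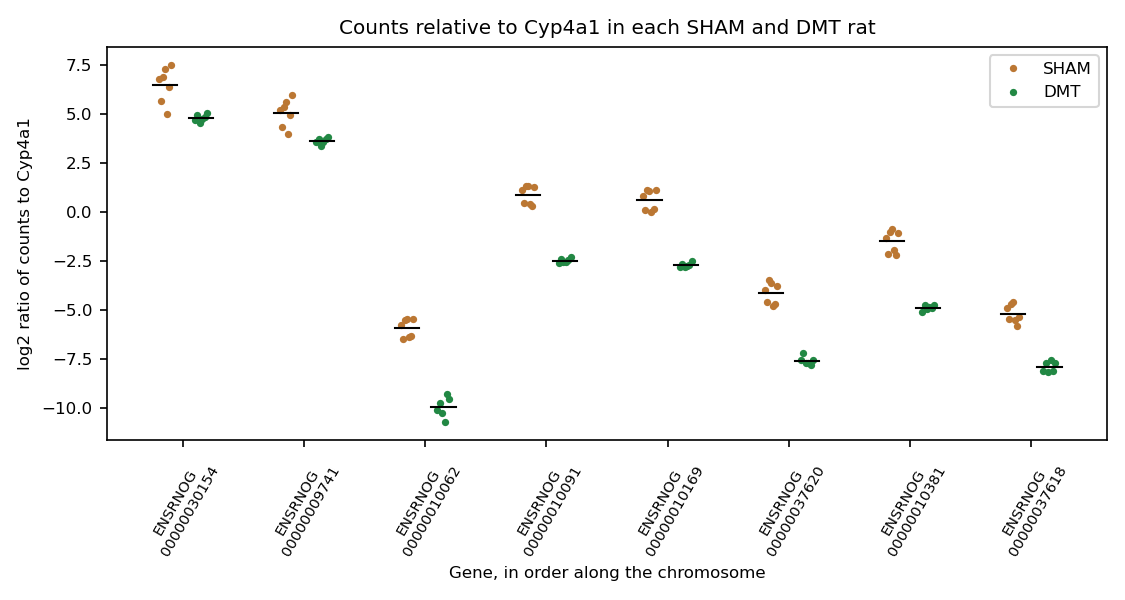
log2 ratio of each gene's counts to those of Cyp4a1 (y axis) in each SHAM and DMT-treated rat, with lines at the means. Ratios were lower in DMT-treated rats for all 8 genes, and the groups overlapped for ENSRNOG00000030154 only. All ratios share the counts of Cyp4a1 and so carry its rise.

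The correlation between ENSRNOG00000030154 and ENSRNOG00000009741 was positive within each of the 3 groups and passed the adjustment for r within SHAM rats only. Whether it differed between the groups was not tested. In the 7 SHAM rats Pearson's r of log2 CPM was 0.90 (exact permutation p=0.00337, adjusted p=0.0304 over 9 correlations) and Spearman's rho was 0.96 (exact permutation p=0.00278, adjusted p=0.0250). Without the 2 SHAM rats farthest from the median, r was 0.91 over 5 rats. In the 6 SD rats r was 0.79 (exact permutation p=0.0417, adjusted p=0.125) and rho 0.94 (exact permutation p=0.0167, adjusted p=0.05), with r of 0.80 without the 2 farthest. In the 6 DMT-treated rats r was 0.84 (exact permutation p=0.0375, adjusted p=0.125) and rho 0.94 (exact permutation p=0.0167, adjusted p=0.05), with r of 0.68 without the 2 farthest. For ENSRNOG00000030154 and Cyp4a1, r was 0.31 in SD (exact permutation p=0.533), -0.60 in SHAM (exact permutation p=0.142) and -0.16 in DMT-treated rats (exact permutation p=0.756). For ENSRNOG00000009741 and Cyp4a1, r was 0.52 (exact permutation p=0.282), -0.29 (exact permutation p=0.503) and 0.03 (exact permutation p=0.953). None of the 6 correlations with Cyp4a1 passed the adjustment for r (lowest adjusted p=0.321, exact permutation test) or for rho (lowest adjusted p=0.149, exact permutation test). Without the 2 farthest rats these values of r ranged from -0.83 to 0.88, and in SHAM rats the sign for ENSRNOG00000030154 and Cyp4a1 turned (0.26), so that these values depended on which rats were included. These correlations were chosen after the values had been seen, which the adjustment does not cover.

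SHAM rat 333, the library with the lowest total of the fit and the highest TMM factor (1.13), had the lowest ENSRNOG00000030154 and ENSRNOG00000009741 and the highest Cyp4a1 of the SHAM rats. It also had the highest CPM of the SHAM rats in 6 of the 9 genes, Cyp4a1 included, and SHAM rat 340 had the lowest in 6. The part of library depth in these correlations was not tested.

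**Figure D4:**
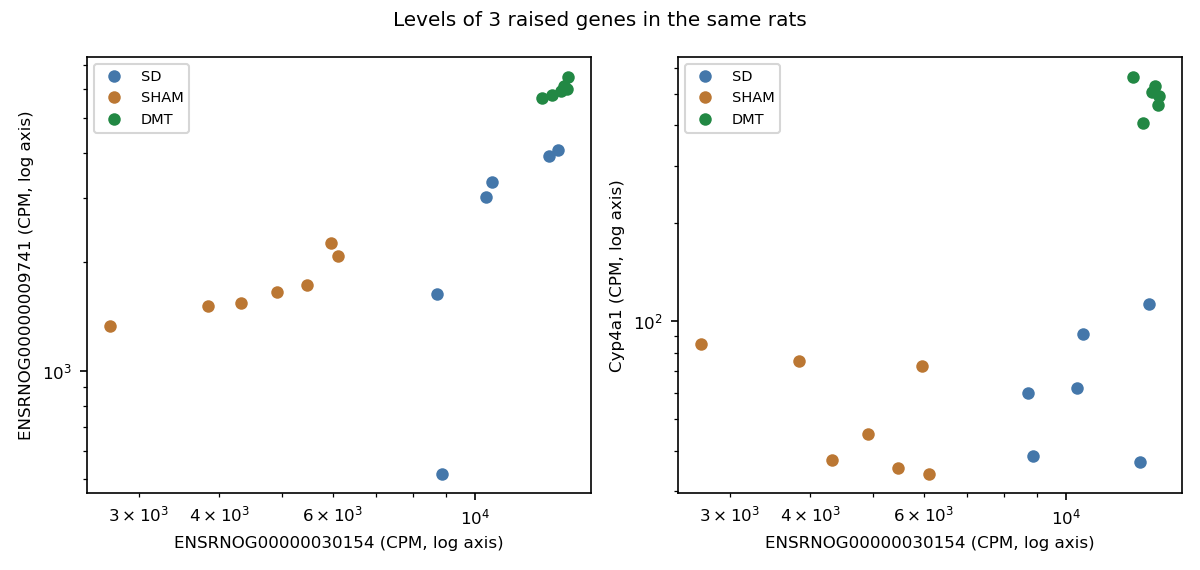
CPM of ENSRNOG00000009741 (left) and Cyp4a1 (right) against CPM of ENSRNOG00000030154 in the same rats (both axes logarithmic), with colours for the groups. Within groups, r with ENSRNOG00000030154 is 0.79 to 0.90 for ENSRNOG00000009741, which passed the adjustment in SHAM rats only. For Cyp4a1 the values of r are -0.60 to 0.31, and none passed. The pairs were chosen after the values had been seen, which the adjustment does not cover.

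The counts of the 4 genes raised in DMT vs SHAM were also added up in each rat, as a description without a test. Their sum was 1.37% ± 0.333 of all counts in SD, 0.654% ± 0.153 in SHAM and 2.0% ± 0.0732 in DMT-treated rats. ENSRNOG00000030154 made up 80.6% ± 7.26 of the sum in SD, 72.3% ± 3.33 in SHAM and 67.5% ± 0.609 in DMT-treated rats. The share of ENSRNOG00000009741 was 18.9% ± 7.23, 26.7% ± 2.75 and 30.0% ± 0.539, and that of Cyp4a1 0.494% ± 0.167, 0.936% ± 0.593 and 2.47% ± 0.304. The log2 fold-change of the sum was 1.65 ± 0.18 SE in DMT vs SHAM, -1.19 ± 0.18 SE in SHAM vs SD and 0.46 ± 0.19 SE in DMT vs SD. As the 4 genes were chosen for their calls in DMT vs SHAM, the direction of the first value follows from the choice. Fragments that map equally well to several genes were left out by the default of the counting program, and how far this lowers or splits the counts of near-identical Cyp4a genes was not tested.

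The genes flanking the window were examined in the same fit. Of 28 genes that start more than 300 kb and up to 1 Mb from Cyp4a1, 20 entered the test. In DMT vs SHAM 4 of these (20%) were called, all as lower, against 11.5% of all genes called, 4.12% as higher and 7.36% as lower. At 4.12%, fewer than 1 of 20 genes would be called as higher, so that nothing is read from the lack of such a call. As higher, 1 flanking gene had an unadjusted p-value under 0.05 in edgeR and DESeq2 called none. The genes called as lower started at 448.7 kb (chr5:138732243-138762035, log2 fold-change -0.45 ± 0.15 SE, adjusted p=0.0369), 689.8 kb (chr5:137593818-137641722, -1.57 ± 0.30 SE, adjusted p=0.00104), 783.1 kb (chr5:137500467-137501951, -0.72 ± 0.16 SE, adjusted p=0.00366) and 994.7 kb (chr5:139278242-139295142, -0.52 ± 0.11 SE, adjusted p=0.00321) from Cyp4a1. The first 3 had group means of at most 2.40 CPM, and the fourth had 1408 ± 208 CPM in SHAM and 952 ± 48.7 CPM in DMT-treated rats. The nearest expressed gene before the window started at 513.7 kb with 500.0, 364 and 400.5 CPM in SD, SHAM and DMT-treated rats, and the nearest after it at 419.3 kb with 216, 227 and 218 CPM. In SHAM vs SD 7 of the 20 flanking genes (35.0%) were called, 6 as higher, against 18.3% of all genes. In DMT vs SD 2 (10%) were called, both as lower, against 18.2% of all genes.

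**Figure D5:**
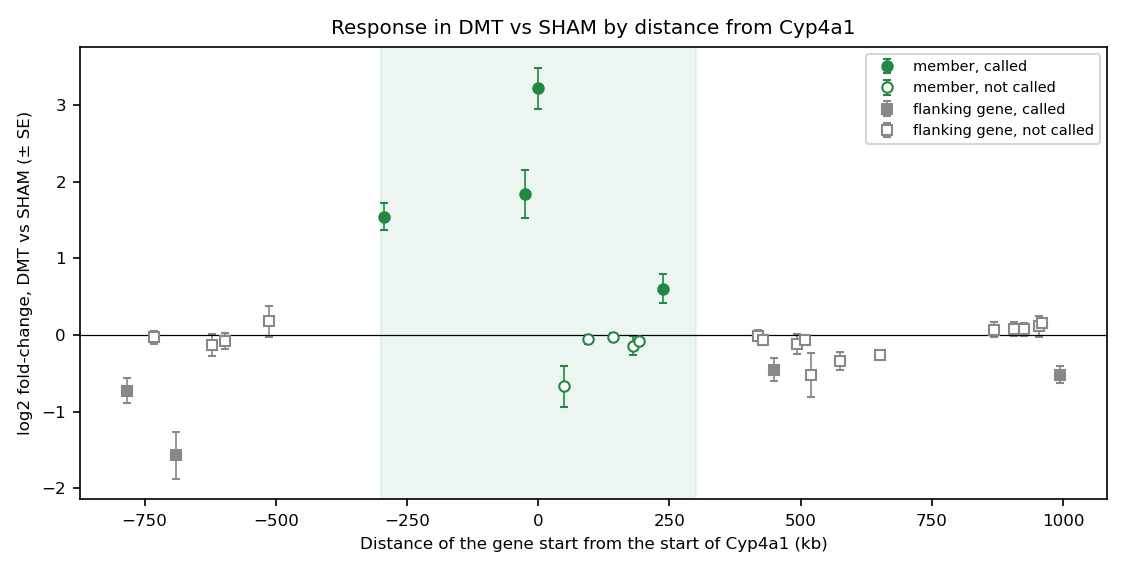
log2 fold-change ± SE in DMT vs SHAM (y axis) against distance of the gene start from that of Cyp4a1 (x axis, kb), for the 9 genes (circles, shaded window) and the 20 flanking genes tested (squares). Filled symbols passed the thresholds. The 4 increases called lie within the window, and the 4 flanking genes called lie below 0. Of all genes, 4.12% were called as higher and 7.36% as lower. Nothing is read from the lack of a higher call among the flanking genes.

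Over the 19 rats, the genes outside the neighbourhood most like Cyp4a1 were scattered over other regions. The 5 highest Pearson correlations of log2 CPM with Cyp4a1 were 0.976 to 0.981 and belonged to genes on chromosomes 5, 8, 1, 4 and 2, the first of them far from Cyp4a1 (chr5:80949471-80982918). The first, ENSRNOG00000016692, had 185, 198 and 439 CPM in SD, SHAM and DMT-treated rats, and the second, ENSRNOG00000032908 (chr8:127234654-127242997), had 174, 169 and 662 CPM. Within the neighbourhood the correlation with Cyp4a1 was 0.795 for ENSRNOG00000009741, 0.731 for ENSRNOG00000037618 and 0.607 for ENSRNOG00000030154, and it was -0.461 to 0.271 for the other 5 genes. These values are pooled over 3 groups whose mean levels differ and were not tested. Within groups the correlation of ENSRNOG00000009741 with Cyp4a1 was 0.52 in SD, -0.29 in SHAM and 0.03 in DMT-treated rats.

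In the SHAM rats left out for depth, Cyp4a1 had 115 CPM in rat 343 (14 counts, exact Poisson 95% interval 63.0 to 193) and 78.8 CPM in rat 348 (8 counts, 34.0 to 155). ENSRNOG00000030154 had 6411 CPM (5969 to 6877) and 5771 CPM (5314 to 6258), and ENSRNOG00000009741 had 2082 CPM (1833 to 2355) and 2088 CPM (1816 to 2389). All 6 values lie below those of every DMT-treated rat. In these libraries 3 counts correspond to 24.7 and 29.5 CPM, so that the genes of low level could not be assessed; intervals and floors cover counting error only.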

How the data were processed

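RNA-seq counts of renal cortex were analysed in 19 of 21 rats. The authors deposited counts per gene, not normalized, for 26404 Ensembl genes in each rat. Per the file headers and the labels, reads were trimmed with Trim Galore, mapped to rn5 with STAR and counted in read pairs on exons by featureCounts (1.6.4) in the reverse-strand setting, from a stranded total RNA kit with ribosomal depletion. The study reports fewer SHAM rats than the labels hold, and 2 libraries under 1000000 counts were left out here by the rule of the neighbourhood.

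From these counts, genes were kept by filterByExpr and normalized by TMM (factors 0.904 to 1.13), and edgeR (4.0.16, R 4.3.3) was used to fit 1 quasi-likelihood model of the 3 groups, which tested 14664 genes with a common biological coefficient of variation of 0.158. Standard errors were derived from the F statistic. CPM was computed from library totals. Ratios to Cyp4a1 used a pseudocount of 0.5 and exact permutation tests (Python 3.11.15, numpy 2.4.6, scipy 1.17.1). DESeq2 (1.42.0) served as an alternative. The scripts were tested on simulated data. Every gene of the neighbourhood was named, with the flanking genes called in DMT vs SHAM and the 5 genes most correlated with Cyp4a1, of which 2 are given by identifier. The neighbourhood, the lists and the tests were chosen with earlier results of these data known. Lists of omega-hydroxylation genes, epoxygenases and cell type markers had been set but were not tested, as identifiers and symbols were not paired. Alternatives were other tests, size factors, filters, sample sets, thresholds and pseudocounts, and leaving out each rat in turn. Figures were drawn with matplotlib (3.10.9).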

Additional observations from a re-analysis of the deposited data

How the results depend on the processing

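In DMT vs SHAM, 3 to 5 of the 9 genes were called under other tests, size factors, filters, sample sets and thresholds, and 3 to 5 when each rat was left out. In DMT vs SD the count was 2 to 3 and, leaving out each rat, 3 to 4. Both counts stayed within 1.5 times the reported values. In SHAM vs SD, 4 genes were called without a fold-change threshold, where 35.0% of all genes were called in place of 18.3%. In the same comparison 1 gene was called with the fold-change tested within the model (5.52% of all genes), with all genes of at least 1 count (13.6%), or when the third group was left out of the fit (16.3%). Leaving out each rat gave 1 to 3 genes in SHAM vs SD. The call of ENSRNOG00000009741 in SHAM vs SD was lost in 15 of 19 fits that left out a rat, and the cause was not tested. Of 873 single values under the alternatives, 838 kept direction and side of the threshold, 22 lost a call, 8 gained one and 5 reversed. The reversals concerned values near 0 in SHAM vs SD: ENSRNOG00000010091 ranged from -0.05 to 0.01 (its sign turned without SD rat 354, SD rat 357 or SHAM rat 340) and ENSRNOG00000037620 from -0.02 to 0.10 (without SD rat 356 or SHAM rat 317) when each rat was left out. All 8 genes differed from Cyp4a1 in the ratio test with either pseudocount and without each rat. These tests share the counts of Cyp4a1 and carry its rise, and the share among all genes was not computed. A CPM minimum of 1 and of 0.1 gave 8 and 10 genes in the neighbourhood. Extending the flanks to 2 Mb gave 6 called of 44 genes tested (13.6%) in place of 4 of 20, against 11.5% of all genes. Against the sum of the 4 genes chosen for their rise (1.65), Cyp4a1 alone gave 3.22 and ENSRNOG00000037618 alone 0.60 in DMT vs SHAM. No paired analysis was possible because the labels give rat numbers that no group shares. ENSRNOG00000010062 and ENSRNOG00000037618 rest on at most 59 counts in a rat.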
